A study of Mus musculus with 20 samples.

Results

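Galanin, the tachykinins, pituitary adenylate cyclase-activating polypeptide (PACAP) and cholecystokinin are neuropeptides made in the hypothalamus, and their transcripts and those of 1 receptor for each were followed in risperidone-fed mice. The genes were chosen by name and comprised Gal, Tac1, Adcyap1 and Cck, which encode the peptide precursors, and Galr1, Tacr1, Adcyap1r1 and Cckbr, which encode the receptors. These 8 genes, found by their Ensembl identifiers, are 8 of the 55471 genes counted, and all 8 passed the filter on low counts. Each peptide is cut from a longer precursor in the secretory pathway, stored in dense-core vesicles and released to act on G protein-coupled receptors. Galanin inhibits neurons through GALR1 and is known for promoting feeding. Substance P, made from Tac1, excites neurons through the neurokinin 1 receptor, the product of Tacr1. PACAP raises cyclic AMP through the PAC1 receptor, the product of Adcyap1r1, and is known for reducing food intake. Cholecystokinin is a satiety signal of the gut and an abundant peptide of the cortex, where it acts mainly on the CCK-B receptor, the product of Cckbr.

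RNA of hypothalamus slices from C57BL/6 wild-type mice was sequenced in 20 libraries, to examine risperidone and the central melanocortin 4 receptor, which the title of the series names. Risperidone, an antipsychotic, acts by blocking serotonin 2A and dopamine D2 receptors, among others, and is known to cause weight gain. The control group (n = 7) ate the control diet ad libitum, the ad libitum risperidone group (n = 7) ate a diet containing risperidone for 4 weeks, and the pair-fed risperidone group (n = 6) received that diet in amounts matched to a reference group. There was no pair-fed group without risperidone, so that pair-feeding and its combination with the drug cannot be told apart. The labels state that body weight did not differ from that of mice on control diet, without settling which feeding condition this covers. Nor do they state outright that no mouse gave more than 1 library, so p-values here reflect how much the libraries varied, and some of that variation may be technical.

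Total counts lay between 17316043 and 18606543 in 19 libraries, whereas ad libitum risperidone library 3 had 9748005. The composition of library 3 also differed: its scaling factor from the trimmed mean of M values was 0.731, against 0.940 to 1.05 in the others. Ad libitum risperidone library 1 carried cortical tissue: Slc17a7, which loads glutamate into vesicles of cortical neurons, was at 698.9 CPM (counts scaled to library size with the trimmed mean of M values) in that library and at 2.10 to 55.1 CPM in the other 19. The summed level of 13 markers of cortex, hippocampus and amygdala was 1711 CPM there, against 439 to 510 CPM in control and 414 to 478 CPM in pair-fed libraries. In the other ad libitum libraries it was 446 to 546 CPM, with the highest value, above every control library, in library 2. Rasgrf2, at a mean of 267 CPM in control and 251 CPM in ad libitum libraries, made up much of these sums. As the mean log2 CPM of the same markers, libraries 2 and 5 were at 3.91 and 3.38, against 2.93 to 3.33 in control. Ad libitum libraries 3, 4, 6 and 7 were at 3.13 to 3.31. The 7 general hypothalamic markers were present in every library, with sums of 2369 to 3260 CPM over all groups, while the arcuate marker Kiss1 had a count of 0 in all 20. Because Cck and Cckbr are abundant in cortex, both are given with and without library 1.

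The start regions of the peptide genes are shown so that they can be compared for the cyclic AMP response element, a textbook control element of neuropeptide genes. Each window runs from 250 bases before to 50 bases after a RefSeq start site (GRCm38.p6), 5′ to 3′ on the strand of the gene. The windows lie at chr19:3414495-3414794 on the minus strand for Gal, chr6:7554811-7555110 on the plus strand for Tac1, chr17:93198767-93199066 on the plus strand for Adcyap1 and chr9:121495645-121495944 on the minus strand for Cck. Capitals mark TGACG, the half-site of the cyclic AMP response element, on either strand, where CGTCA is its reverse complement.
Gal promoter: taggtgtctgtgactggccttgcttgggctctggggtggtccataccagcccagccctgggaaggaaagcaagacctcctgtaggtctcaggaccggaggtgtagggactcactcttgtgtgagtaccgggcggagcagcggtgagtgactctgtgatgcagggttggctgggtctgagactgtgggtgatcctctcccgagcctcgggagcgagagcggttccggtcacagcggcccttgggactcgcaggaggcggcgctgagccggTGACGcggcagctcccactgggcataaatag
Tac1 promoter: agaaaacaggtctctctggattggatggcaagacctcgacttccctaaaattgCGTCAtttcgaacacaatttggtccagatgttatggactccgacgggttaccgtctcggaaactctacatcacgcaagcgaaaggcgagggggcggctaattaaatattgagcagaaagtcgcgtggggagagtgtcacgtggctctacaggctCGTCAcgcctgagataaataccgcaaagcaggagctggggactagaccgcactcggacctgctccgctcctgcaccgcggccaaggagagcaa
Adcyap1 promoter: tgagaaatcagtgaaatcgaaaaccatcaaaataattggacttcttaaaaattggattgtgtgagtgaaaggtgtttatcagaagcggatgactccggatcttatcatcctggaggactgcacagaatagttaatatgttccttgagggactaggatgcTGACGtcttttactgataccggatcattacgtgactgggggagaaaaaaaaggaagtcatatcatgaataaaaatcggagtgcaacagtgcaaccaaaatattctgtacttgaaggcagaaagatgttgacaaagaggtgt
Cck promoter: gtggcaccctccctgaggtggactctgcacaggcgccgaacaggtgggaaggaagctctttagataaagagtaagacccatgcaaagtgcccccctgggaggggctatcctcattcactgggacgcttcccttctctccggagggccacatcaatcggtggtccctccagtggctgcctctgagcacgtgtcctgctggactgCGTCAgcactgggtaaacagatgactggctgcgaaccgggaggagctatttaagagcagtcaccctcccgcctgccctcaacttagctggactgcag
Each of these windows held the half-site, once in Gal, Adcyap1 and Cck and 2 times in Tac1. With the start site at 0, its first base lay at 19 in Gal, at −197 and −43 in Tac1, at −91 in Adcyap1 and at −47 in Cck. Adcyap1 had another RefSeq start site, 93199168, from which the same half-site lay at −242. The Tac1 start site used, 7555061, is not the annotated start of the gene, 7554879. Over 32817 RefSeq mouse promoter windows of the same length, 20.8% held TGACG. The full palindrome TGACGTCA occurred in none of the windows of these genes and in 1.79% of all windows. The variant TGCGTCA, which overlaps the half-site and was noticed after the sequences were read, occurred in Tac1 and Cck and in 2.11% of all windows. Among the receptor genes, the Tacr1 window held 1 half-site at −226 and the Adcyap1r1 and Cckbr windows held none. Windows were found for 7 of the 8 genes, Galr1 being the other one. These matches describe letters only and no binding was measured.

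Per length of exon, the receptor of PACAP and the galanin precursor were the most abundant of these transcripts in control hypothalamus. Levels between genes are given as CPM per kilobase of exon, with the SD over the 7 control libraries. Adcyap1r1 stood at 58.1 ± 2.61, above 96.6% of the genes tested, and Gal at 44.1 ± 4.80, above 95.2%. Adcyap1 followed at 23.6 ± 1.72 and Tac1 at 21.8 ± 2.01, and the ranges of these neighbours overlapped. Cck was lower at 12.5 ± 2.62 and Cckbr at 6.89 ± 0.311. The lowest were Tacr1 at 2.77 ± 0.321 and Galr1 at 2.60 ± 0.423, again with overlapping ranges. The ranges of the remaining neighbours in this order did not overlap. Peptide exceeded receptor per length for 3 of the 4 systems: the ratio was 17.3 ± 3.59 for Gal to Galr1, 7.97 ± 1.20 for Tac1 to Tacr1 and 1.82 ± 0.353 for Cck to Cckbr (SD, n = 7). PACAP was the reverse, with an Adcyap1 to Adcyap1r1 ratio of 0.407 ± 0.0427 (SD, n = 7). Which cells contain which transcript cannot be read from tissue RNA.

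**Figure D1:**
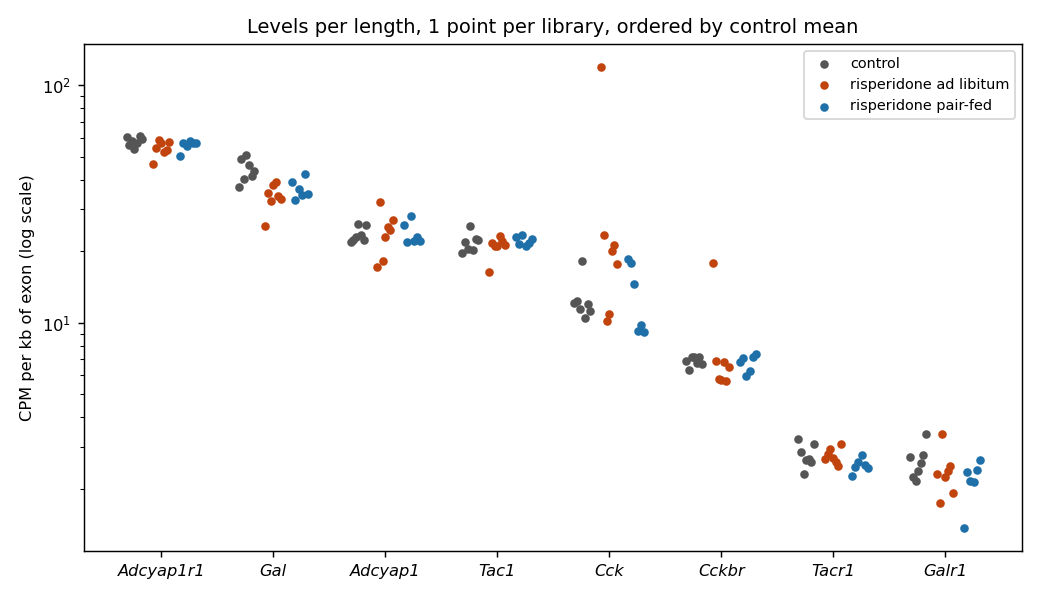
Levels of the peptide and receptor genes in CPM per kilobase of exon (log axis), 1 point per library. In control, Adcyap1r1 at a mean of 58.1 and Gal at 44.1 stand highest, and Tacr1 at 2.77 and Galr1 at 2.60 lowest.

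With edgeR and all 20 libraries none of the 8 genes passed the test in any comparison, and Gal, lower in every risperidone library than the control mean, had the smallest p of the 8 in both comparisons with control. DESeq2 and limma-voom each called Gal in some comparisons, as given below. Gal encodes the galanin precursor and lies on chromosome 19 from 3409915 to 3414544 in GRCm38 (ENSMUSG00000024907). In control it ran from 29.5 CPM through a median of 34.2 CPM to 40.1 CPM. In ad libitum risperidone it ran from 20.1 CPM in library 1 through a median of 27.0 CPM to 30.8 CPM. In pair-fed risperidone it ran from 25.8 CPM through a median of 28.1 CPM to 33.2 CPM. The ranges overlapped, although 5 of the 7 ad libitum and 4 of the 6 pair-fed libraries lay below the lowest control library. In bulk tissue, fewer galanin cells and less galanin RNA per cell cannot be told apart.

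Compared with control, the log2 fold change of Gal in ad libitum risperidone was −0.37 (SE 0.0829, 95% interval −0.54 to −0.20), with an adjusted p of 0.0842 in the quasi-likelihood test of edgeR with Benjamini-Hochberg adjustment. In that comparison 0 of the 8 genes passed at an adjusted p under 0.05, where 0.0615% of the 17893 genes tested did. At an unadjusted p under 0.05 there were 2 of the 8, Gal and Cck, and 13.1% of all genes. DESeq2 called Gal alone, at an adjusted p of 0.00986, and limma-voom called none. Over the 28 other settings the adjusted p of Gal ran from 0.00986 to 0.206, and 0 to 110 of all genes were called. Without library 1, the lowest in Gal, the log2 fold change was −0.31 and the adjusted p 0.0685.

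In pair-fed risperidone the log2 fold change of Gal was −0.26 (SE 0.0854, 95% interval −0.44 to −0.09) with an adjusted p of 0.333 (edgeR). Here 0 of the 8 genes passed, against 0.486% of all genes, and Gal was the only one of the 8 at an unadjusted p under 0.05, as were 6.66% of all genes. Limma-voom called Gal alone (adjusted p = 0.0286) and DESeq2 none, and over 28 other settings the adjusted p ran from 0.0286 to 0.579. Over these settings 65 to 250 of all genes were called. Both comparisons share the 7 control libraries. Between the risperidone groups, Gal differed by 0.11 on the log2 scale (pair-fed against ad libitum, 95% interval −0.07 to 0.29, adjusted p = 0.595, edgeR). This interval includes no difference and a difference about as large as that of pair-fed mice from control.

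With both risperidone groups set against control as 1 mean, a comparison added after the data were seen, Gal had a log2 fold change of −0.32 (SE 0.0715) and an adjusted p of 0.0566 (edgeR). All 13 risperidone libraries lay below the control mean of 34.7 CPM and 9 of the 13 below the lowest control library. In this comparison 0 of the 8 genes passed, against 0.33% of all genes, 1 of the 8 and 7.82% of all genes had an unadjusted p under 0.05, and both DESeq2 and limma-voom called Gal. Over 27 other settings, 36 to 193 of all genes were called. The adjusted p of Gal ran from 0.00648 to 0.193 over these settings and was under 0.05 in 9 of them. Among these, leaving out 1 of ad libitum libraries 1, 4 and 5 gave 0.0180, 0.0466 and 0.0406, respectively, and leaving out control library 1 or pair-fed library 5 gave 0.0376 and 0.0394. The log2 fold change was negative in each of these settings, and which side of the threshold Gal fell on was decided by the setting.

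**Figure D2:**
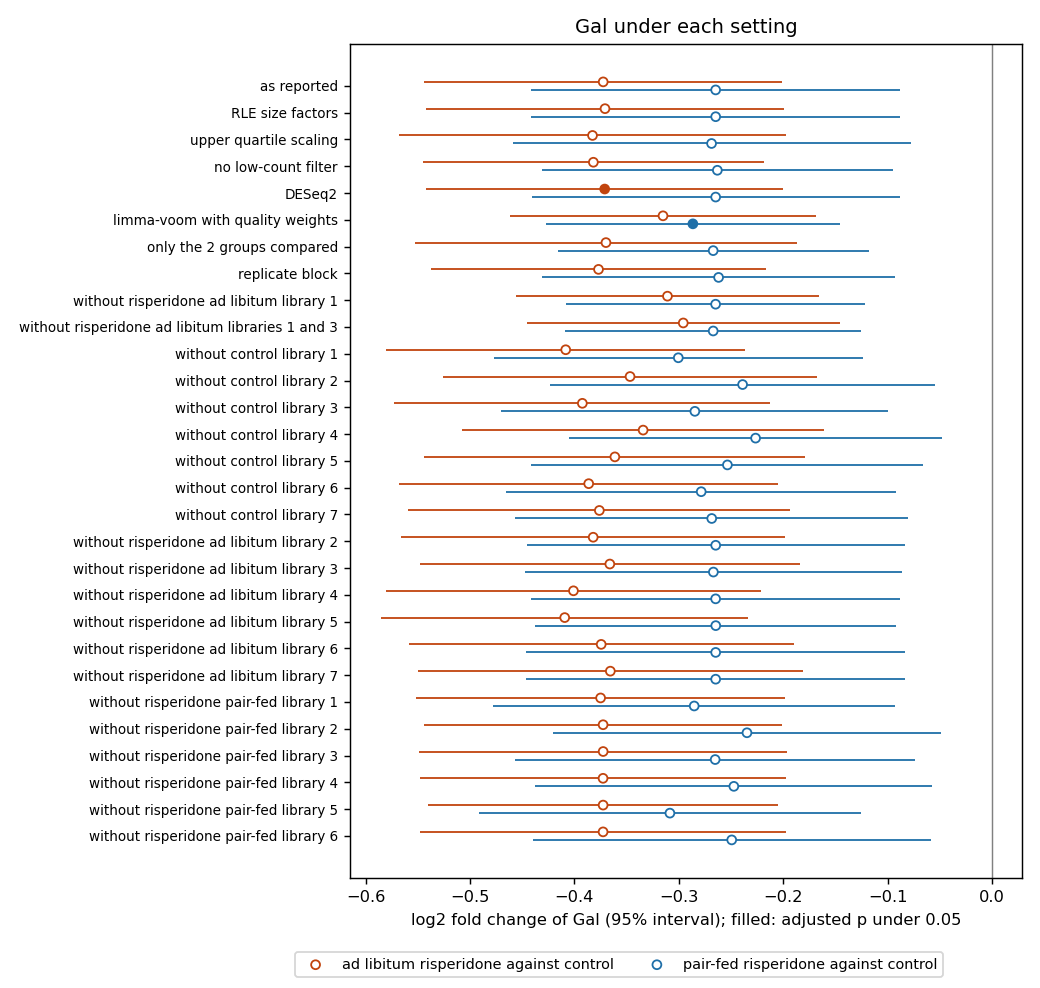
Log2 fold change of Gal (x axis, with 95% intervals) in ad libitum (orange) and pair-fed risperidone (blue) against control, 1 row per setting, with filled points where the adjusted p was under 0.05. Each interval plotted lies below 0, and 1 setting in each comparison is filled, DESeq2 for ad libitum and limma-voom for pair-fed risperidone.

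Markers of hypothalamic regions were examined beside Gal, and with edgeR and all 20 libraries none passed the test in either comparison with control. Without ad libitum library 1 in the shared fit, 1 of 6 ventromedial markers passed as lower in pair-fed risperidone. Leaving out 1 library at a time, 66 to 166 of all genes were called in that comparison. Of 5 markers of the lateral hypothalamus, a region with galanin neurons, 4 had lower values in ad libitum risperidone (median log2 fold change −0.36, or −0.27 without library 1) and 5 in pair-fed risperidone (median −0.25). Their summed level was 823 to 1080 CPM in control, 405 to 960 CPM in ad libitum and 801 to 931 CPM in pair-fed libraries. Of 6 paraventricular and supraoptic markers, 5 had lower values in ad libitum (median −0.41, or −0.37 without library 1) and 5 in pair-fed risperidone (median −0.18), with sums of 219 to 558 CPM in control, 128 to 417 CPM in ad libitum and 91.1 to 521 CPM in pair-fed libraries. Of 7 arcuate markers, 6 had lower values in ad libitum (median −0.13, or 4 of 7 and −0.06 without library 1) and 3 in pair-fed risperidone (median 0.04). Of the 5 preoptic markers, 3 were lower in ad libitum and 3 in pair-fed risperidone, with medians of −0.08 and −0.04, and of the 5 ependymal markers, 5 were lower in each, with medians of −0.34 and −0.08. Among 6 ventromedial markers, 3 were lower in ad libitum (median 0.07, or −0.03 without library 1) and 4 in pair-fed risperidone (median −0.12). Of 5 mammillary and premammillary markers, 3 were higher in ad libitum (median 0.31, or 0.47 without library 1) and 4 in pair-fed (median 0.27). General hypothalamic markers were lower for 6 of 7 in ad libitum (median −0.17, or 5 of 7 and −0.12 without library 1) and 3 of 7 in pair-fed risperidone (median 0.00). The part of these marker levels in the result for Gal was not tested.

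Galr1, the inhibitory galanin receptor (chromosome 18, 82392380 to 82406777, ENSMUSG00000024553), had the fewest reads of the 8 genes, with counts of 72 to 182 per library. It ran from 6.42 CPM through a median of 7.64 CPM to 10.2 CPM in control. In ad libitum risperidone it ran from 5.22 CPM through 6.89 CPM to 10.1 CPM, the last in library 3. In pair-fed risperidone it ran from 4.08 CPM through 6.70 CPM to 7.88 CPM. The groups overlapped widely. Its log2 fold change was −0.18 (95% interval −0.46 to 0.11, adjusted p = 0.613, edgeR) in ad libitum and −0.26 (95% interval −0.56 to 0.03, adjusted p = 0.815, edgeR) in pair-fed risperidone. Leaving out 1 library at a time moved these to between −0.26 and −0.10 in ad libitum, the latter without control library 7, and to between −0.33 and −0.16 in pair-fed risperidone, the latter without pair-fed library 1. The intervals are wide enough to hold the difference measured for Gal. The Gal to Galr1 ratio per length was 15.1 ± 3.76 in ad libitum (SD, n = 7) and 17.8 ± 5.63 in pair-fed libraries (SD, n = 6), both within 1 SD of the control mean.

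**Figure D3:**
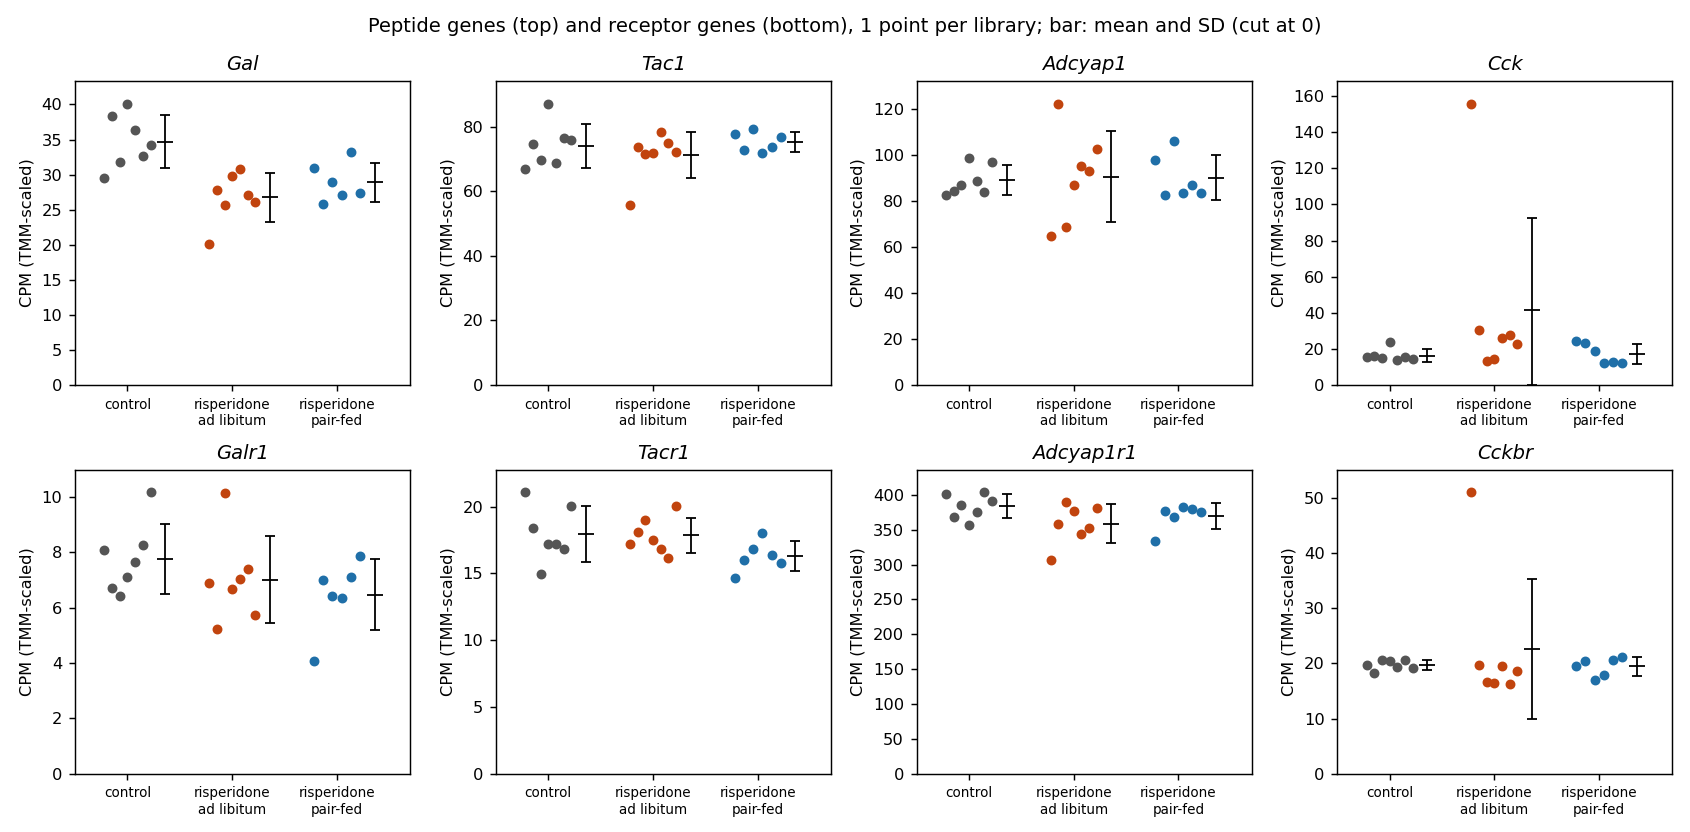
CPM of the 4 peptide genes (top) and their receptor genes (bottom) in each library, with the mean and SD of each group, the SD bar of Cck being cut at 0. Gal is lower in the risperidone groups with overlap, and ad libitum library 1 stands alone at 155.9 CPM for Cck and 51.0 CPM for Cckbr.

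For Tac1 and Tacr1 no difference between groups larger than the spread of the libraries was detected. Tac1, the precursor of substance P and neurokinin A (chromosome 6, 7554879 to 7565834, ENSMUSG00000061762), ran from 66.8 CPM through 74.5 CPM to 87.1 CPM in control. In ad libitum risperidone it was 55.8 CPM in library 1 and 71.5 to 78.5 CPM in the other 6, and in pair-fed risperidone it was 71.7 to 79.4 CPM. All libraries but library 1 lay inside the control range. In ad libitum risperidone its log2 fold change against control was −0.06 (95% interval −0.19 to 0.07, adjusted p = 0.740, edgeR), or −0.01 without library 1. For pair-fed risperidone it was 0.02 (95% interval −0.11 to 0.16, unadjusted p = 0.731, edgeR). Tacr1, the substance P receptor (chromosome 6, 82402334 to 82560104, ENSMUSG00000030043), was at 14.9 to 21.1 CPM in control, 16.2 to 20.1 CPM in ad libitum and 14.7 to 18.1 CPM in pair-fed libraries. Its log2 fold change was −0.01 (95% interval −0.16 to 0.13, adjusted p = 0.969, edgeR) in ad libitum and −0.14 (95% interval −0.29 to 0.01, adjusted p = 0.781, edgeR) in pair-fed risperidone, where 5 of 6 libraries lay below the control mean.

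Adcyap1 had similar group means but spread more widely between the ad libitum libraries than between the others. Adcyap1, the PACAP precursor (chromosome 17, 93199017 to 93206537, ENSMUSG00000024256), was at 89.0 ± 6.48 CPM in control (SD, n = 7), 90.6 ± 19.7 CPM in ad libitum (SD, n = 7) and 90.1 ± 9.73 CPM in pair-fed libraries (SD, n = 6). Control libraries lay between 82.8 and 98.8 CPM. In the ad libitum group, libraries 1 and 3 were lowest at 64.8 and 68.9 CPM and library 2 was highest at 122.4 CPM, all outside the control range. Against control the difference on the log2 scale was 0.03 (95% interval −0.18 to 0.24, unadjusted p = 0.772, edgeR) for ad libitum and 0.02 (95% interval −0.20 to 0.24, unadjusted p = 0.867, edgeR) for pair-fed risperidone.

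Adcyap1r1, the PAC1 receptor (chromosome 6, 55451978 to 55501451, ENSMUSG00000029778), varied least between control libraries together with Cckbr, at a coefficient of variation of 4.50% and 4.51%. It ran from 357 CPM through 386 CPM to 404 CPM in control and from 307 CPM in library 1 through 358 CPM to 390 CPM in ad libitum risperidone. In pair-fed risperidone it was 334 CPM in library 1 and 368 to 383 CPM in the other 5. Values were thus lower than the control mean in 6 of 7 ad libitum and 6 of 6 pair-fed libraries, inside a range that overlapped. Its log2 difference from control was −0.10 (95% interval −0.20 to 0.00, adjusted p = 0.401, edgeR) for ad libitum risperidone, −0.06 without library 1, and −0.05 (95% interval −0.16 to 0.05, adjusted p = 0.958, edgeR) for pair-fed risperidone. In the ad libitum comparison 6 of 7 general hypothalamic markers also had lower values (median −0.17), or 5 of 7 without library 1 (median −0.12). The median was 0.00 in the pair-fed comparison, and the part of these markers in the result for Adcyap1r1 was not tested. Pair-fed against ad libitum, the log2 difference was −0.09 for Galr1, 0.08 for Tac1, −0.13 for Tacr1, −0.01 for Adcyap1 and 0.04 for Adcyap1r1, with adjusted p from 0.438 to 0.979 (edgeR).

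Relative to its mean, Cck had the widest spread of the 8 genes between libraries of each group. Cck, the cholecystokinin precursor (chromosome 9, 121489824 to 121495694, ENSMUSG00000032532), lay between 13.6 and 16.1 CPM in 6 control libraries and at 23.9 CPM in control library 4, with a median of 15.6 CPM over all 7. In ad libitum risperidone library 1 held 155.9 CPM, and the others held 30.6, 13.2, 14.1, 26.1, 27.7 and 23.0 CPM in libraries 2 to 7. In pair-fed risperidone it was 24.2, 23.2, 19.1, 12.02, 12.8 and 11.95 CPM in libraries 1 to 6. Groups overlapped with or without library 1, since library 4 of the ad libitum group lay among the control libraries and library 3 just below the lowest of them. With all libraries the log2 fold change in ad libitum risperidone was 1.36 (SE 0.417, adjusted p = 0.196, edgeR), and without library 1 it was 0.49 (SE 0.194, 95% interval 0.09 to 0.89, adjusted p = 0.333, edgeR). The mean of the ad libitum group was 41.5 ± 50.9 CPM (SD, n = 7) with library 1 and 22.5 ± 7.23 CPM (SD, n = 6) without it. The control mean was 16.3 ± 3.42 CPM (SD, n = 7).

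For pair-fed risperidone against control the log2 difference of Cck was 0.07 (95% interval −0.85 to 0.99), or 0.07 (95% interval −0.34 to 0.48) when library 1 was left out of the shared estimate of spread. Against the ad libitum group it was −1.29 (adjusted p = 0.217, edgeR), or −0.42 (95% interval −0.83 to 0.00, adjusted p = 0.442, edgeR) without library 1. In this comparison 0 of the 8 genes passed, against 0.397% of all genes, 1 of the 8, Cck, and 13.5% of all genes had an unadjusted p under 0.05, and DESeq2 and limma-voom also called 0 of the 8. Slc17a7 followed Cck in part among the ad libitum libraries left. It was 55.1 CPM in library 2 and 23.4 CPM in library 5, beside 6.85 CPM in library 4 and 7.46 CPM in library 3. Libraries 6 and 7, with Cck near library 5, had 12.1 and 8.15 CPM of Slc17a7. Control library 4, the highest control in Cck, was also the highest control in Slc17a7, at 14.9 CPM. Control library 6, next in Slc17a7 at 11.2 CPM, held the control median of Cck, 15.6 CPM. In pair-fed libraries 1 to 6 Slc17a7 was 8.61, 8.48, 2.10, 5.22, 8.96 and 8.47 CPM, and Cck did not follow it. Pair-fed libraries 1 and 2 had Cck at 24.2 and 23.2 CPM, and libraries 5 and 6 at 12.8 and 11.95 CPM. Without library 1, 11 of 13 cortical markers were higher in ad libitum risperidone (median 0.21, against 0.92 with it) and 0 passed the test. In the same comparison 3 of 5 mammillary and premammillary markers were higher (median 0.47, with 4 of the 5 at an unadjusted p under 0.05) and 8 of 8 thalamic markers (median 0.23), with 0 passing. The part of these markers in the remaining difference of Cck was not tested.

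**Figure D4:**
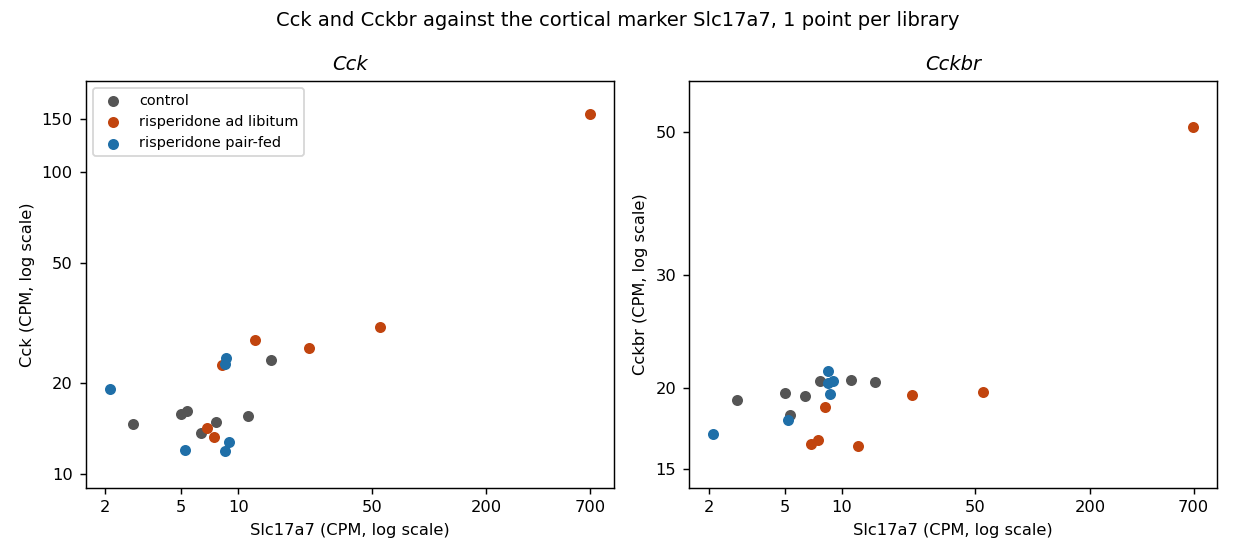
Cck (left) and Cckbr (right) against the cortical marker Slc17a7 in CPM (log axes), 1 point per library. Ad libitum library 1 lies far to the upper right, at 698.9 CPM of Slc17a7, and library 2 at 55.1 CPM is next.

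Cckbr, the CCK-B receptor (chromosome 7, 105425731 to 105470898, ENSMUSG00000030898), had a log2 fold change of opposite sign with and without library 1. It was 18.2 to 20.6 CPM in control and 17.0 to 21.2 CPM in pair-fed libraries, and in the ad libitum group it was 51.0 CPM in library 1 and 16.2 to 19.7 CPM in the other 6. The log2 fold change in ad libitum risperidone was 0.20 (95% interval −0.19 to 0.60, adjusted p = 0.688, edgeR) with library 1 and −0.14 (95% interval −0.27 to −0.01, adjusted p = 0.404, edgeR) without it. In pair-fed risperidone it was −0.02 (95% interval −0.43 to 0.39, unadjusted p = 0.915, edgeR) with library 1 in the fit and −0.02 (95% interval −0.15 to 0.10) without it. Pair-fed against ad libitum it was −0.23 with library 1 and 0.12 (95% interval −0.02 to 0.25, adjusted p = 0.512, edgeR) without it. The Cck to Cckbr ratio per length was 2.74 ± 0.797 (SD, n = 6) in the ad libitum group without library 1, 1.82 ± 0.353 in control (SD, n = 7) and 1.96 ± 0.665 in pair-fed libraries (SD, n = 6), a difference that was not tested.

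**Figure D5:**
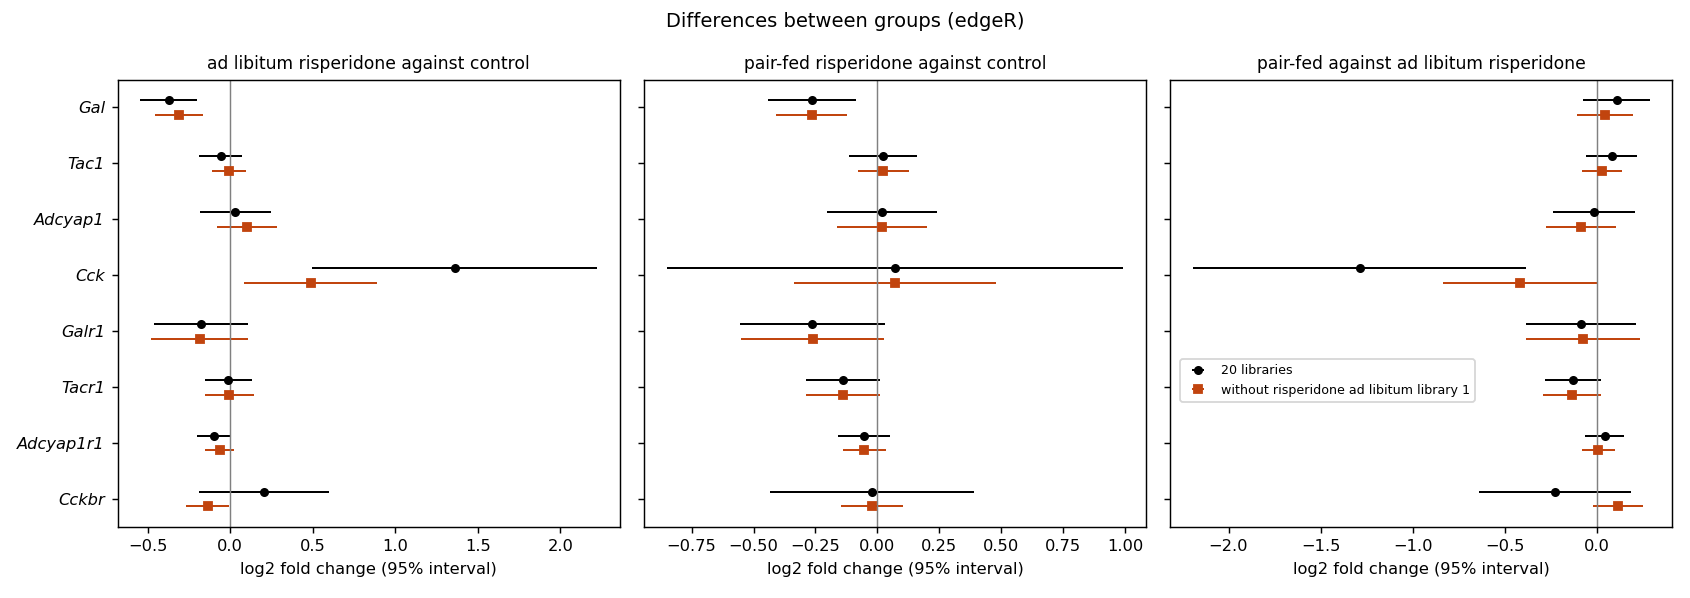
Log2 fold changes of the 8 genes with 95% intervals in the 3 comparisons, with all 20 libraries (black) and without ad libitum risperidone library 1 (orange). The estimates for Cck and Cckbr against or within the ad libitum group move most, Cck from 1.36 to 0.49 and Cckbr from 0.20 to −0.14.

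Over the 8 genes the median log2 fold change was −0.04 in ad libitum and −0.04 in pair-fed risperidone against control, beside 0.01 and 0.00 over all genes tested, with 3 genes higher and 5 lower in each. Pair-fed against ad libitum it was −0.05, beside 0.00 over all genes, again with 3 higher and 5 lower, or 4 and 4 without library 1.

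Of 13 other peptides and receptors of these families, 10 were tested and 0 passed in any comparison with edgeR. Galp, Tac4 and Tacr2 did not reach the count filter. Against control, 4 were higher and 6 lower in ad libitum risperidone, with a median log2 fold change of −0.03 beside 0.01 over all genes, and 3 of 10 had an unadjusted p under 0.05, beside 13.1% of all genes. Cckar, the CCK-A receptor that mediates satiety, was at a mean of 10.1 CPM in control, 7.63 CPM in ad libitum and 8.34 CPM in pair-fed libraries. Its log2 fold change was −0.41 (SE 0.116, adjusted p = 0.174, edgeR), or −0.34 without library 1, in ad libitum and −0.27 (SE 0.118, adjusted p = 0.669, edgeR) in pair-fed risperidone. Vip, a peptide related to PACAP, had a log2 fold change of 1.69 (adjusted p = 0.193, edgeR) that was 0.47 without library 1, where it stood at 16.7 CPM. Vipr1, a receptor for that peptide and the third gene at an unadjusted p under 0.05, had 1.56 with library 1 and 0.46 without it. In pair-fed risperidone 4 were higher and 6 lower, with a median of −0.05, and Galr2, the galanin receptor that couples to phospholipase C, had −0.38 (adjusted p = 0.738, edgeR) at a mean of only 1.25 CPM against 1.63 CPM in control. Pair-fed against ad libitum, 4 were higher and 6 lower, with a median of −0.12, or −0.18 without library 1.

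The G proteins and effectors through which these receptors signal gave 0 of 23 passing in each comparison with edgeR and all libraries, where 0.0615%, 0.486% and 0.397% of all genes passed against control in ad libitum, against control in pair-fed and between the risperidone groups. At an unadjusted p under 0.05 there were 6, 1 and 7 of the 23, beside 13.1%, 6.66% and 13.5% of all genes. Of these, in ad libitum risperidone 13 were higher and 10 lower (median 0.02), with the smallest p for Adcy1, an adenylate cyclase, and Plcb1, a phospholipase C. Their log2 fold changes of 0.75 and 0.47 were 0.29 and 0.21 without library 1. In pair-fed risperidone 9 were higher and 14 lower (median 0.00). Adcy6, another adenylate cyclase, had −0.23 there (SE 0.0663, adjusted p = 0.204, edgeR), and without ad libitum libraries 1 and 3 in the shared fit it was the 1 gene of the list that passed, at −0.23 (adjusted p = 0.0270, edgeR). It also passed without those libraries for the mean of both risperidone groups, at −0.19 (adjusted p = 0.0464, edgeR). Over all settings 65 to 250 of all genes were called in pair-fed against control and 36 to 193 for the mean of both groups. Prkca, a protein kinase C, had −0.36 in pair-fed against ad libitum risperidone (adjusted p = 0.197, edgeR), or −0.20 (adjusted p = 0.0833, edgeR) without library 1, in a list with 9 higher and 14 lower.

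Genes that process, store or degrade these peptides gave 0 of 22 passing in each comparison with edgeR. In ad libitum against control, pair-fed against control and between the risperidone groups, 0.0615%, 0.486% and 0.397% of all genes passed. At an unadjusted p under 0.05 there were 3, 0 and 2 of the 22, beside 13.1%, 6.66% and 13.5% of all genes. Here 8 in ad libitum risperidone were higher and 14 lower (median −0.04), or 5 and 17 without library 1. Qpct, the glutaminyl cyclase that forms N-terminal pyroglutamate on peptides, had −0.22 (SE 0.0741, adjusted p = 0.231, edgeR) and Scg3, a granin of secretory granules, −0.12 (SE 0.0481, adjusted p = 0.288, edgeR). In pair-fed risperidone 9 were higher and 13 lower (median −0.01), led by the prohormone convertase Pcsk1 at −0.13 (adjusted p = 0.781, edgeR) and Pam, the enzyme that amidates peptide ends, at −0.08 (adjusted p = 0.871, edgeR). Pair-fed against ad libitum, 9 were higher and 13 lower (median −0.02), and Qpct had 0.22 (adjusted p = 0.226, edgeR).

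Likeness between genes was described over the 19 libraries other than ad libitum library 1, as Pearson's r of the deviations of log2 CPM from the group means, and these points share dissection, library and depth. Adcyap1 and Cck varied together at r = 0.66, and Adcyap1r1 ran opposite to Cck at −0.68 and to Gal at −0.64. With library 1 added these were −0.16, −0.83 and 0.02, so that the first and the last rest on leaving it out. For each of the 8, 13658 genes were searched, so the values of r below are the largest of many and were not tested. The genes most like Gal were Dusp11 (r = 0.87), Blvrb (0.85) and Ezr (0.80), and those most like Tac1 were Crabp1 (0.77), Bsx (0.77) and Wif1 (0.76). Adcyap1 was most like Mypn (0.93), Rprm (0.92) and Kcnv1 (0.90), and Cck most like Stmn1 (0.91), Ak1 (0.91) and Pvalb (0.90). Of the receptors, Galr1 was most like Cadm1 (0.88), Tacr1 most like Rab11fip2 (0.85), Adcyap1r1 most like Ankfy1 (0.94) and Cckbr most like Ifit3b (0.91). Several of these values came from the 19 libraries alone: with library 1 added, r was 0.15 for Gal and Ezr, −0.30 for Adcyap1 and Kcnv1, 0.06 for Cck and Pvalb, 0.26 for Tacr1 and Rab11fip2 and −0.27 for Cckbr and Ifit3b. Mean levels of some marker lists also varied with the genes over the 19 libraries, and these values were not tested. With mammillary and premammillary markers r was 0.74 for Adcyap1 and 0.70 for Cck, or 0.83 and −0.29 with library 1 added. For Cck it was 0.64 with cortical, −0.75 with general hypothalamic and −0.70 with paraventricular and supraoptic markers. With library 1 added these were 0.91, −0.86 and −0.57. Adcyap1r1 had −0.76 with endothelial markers, or −0.25 with library 1 added.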

How the data were processed

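The authors deposited 1 table of raw read counts per gene for the 20 libraries. Per the submitters' processing notes, STAR, featureCounts and DESeq2 were used, with GRCm38 and mm10 as builds. The strand setting, tool versions, filters and annotation release were not given in the sources used here. RNA was sequenced as paired reads on a DNBseq instrument, per the labels' protocols. Identifiers were matched to GENCODE M21 (GRCm38) for 55230 of 55471 genes. None of the 8 genes overlaps another annotated gene.

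Counts were tested with edgeR 4.0.16 (R 4.3.3): TMM scaling, filterByExpr at a minimum count of 10, and 1 quasi-likelihood model with a coefficient per group over 20 libraries. Tests were two-sided, and p-values were adjusted by Benjamini-Hochberg over 17893 genes, with a threshold of 0.05. Levels per length divide CPM by the union of exons. DESeq2 1.42.0, limma-voom 3.58.1 with quality weights, RLE and upper quartile scaling, no filter, 2-group fits, a replicate block and leaving out libraries were alternatives. The edgeR fit was also run on simulated counts with the same dispersion for all genes and no outlying library. The changes simulated were larger than those of Gal, so that run does not cover Gal and no result here rests on it. Each list was named by the 2 genes with the smallest p in a comparison, and the 3 genes most alike by r. The 8 genes, the lists and the tests were chosen with earlier results of these data known. Promoter sequences are from RefSeq.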

Additional observations from a re-analysis of the deposited data

Results flagged for a closer look

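In 24 sets of values (8 genes in 3 groups of 7, 7 and 6 libraries), the highest or lowest library stood apart from the rest of its group 5 times. The rule is set to flag about 1 in 20 independent, normally distributed sets. These sets share libraries and several flags came from ad libitum library 1, so the number was not compared with that rate. Cck was 155.9 CPM in ad libitum risperidone library 1, with the next library at 30.6 CPM. Cckbr was 50.98 CPM in the same library, with the next at 19.7 CPM. Tac1 was lowest there, at 55.8 CPM, with the next at 71.5 CPM. Cck was 23.9 CPM in control library 4, with the next control library at 16.1 CPM. Adcyap1r1 was 333.9 CPM in pair-fed risperidone library 1, with the next at 367.6 CPM.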

How the results depend on the processing

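Of 888 fold changes of the 8 genes under 28 other settings (27 for the mean of both groups), 836 kept their direction and side of the threshold, 11 passed the threshold where the reported fit did not, all for Gal, and 41 had the other sign, all outside the threshold. Gal was the 1 gene of the 8 called with DESeq2 in ad libitum and with limma-voom in pair-fed against control. For the mean of both groups it was the 1 called without ad libitum libraries 1 and 3, with DESeq2, limma-voom or no low-count filter, and leaving out 1 library gave 0 to 1 called. The cause was not tested. Values of the other sign (log2) were, with limma-voom, Tacr1 0.0028 and Cckbr −0.088 in ad libitum against control; Adcyap1 −0.0022 and Cck −0.030 in pair-fed against control; Galr1 0.041 and Cckbr 0.086 in pair-fed against ad libitum; Tac1 0.016 and Cckbr −0.044 in the mean of both groups against control. With replicate numbers as a block they were Cck −0.071 in pair-fed against control; Adcyap1 0.031 in pair-fed against ad libitum. Without ad libitum libraries 1 and 3 they were Cckbr −0.12 in ad libitum against control; Galr1 0.015 and Cckbr 0.10 in pair-fed against ad libitum; Tac1 0.0098 and Cckbr −0.074 in the mean of both groups against control.

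Leaving out 1 library at a time gave both signs for these log2 fold changes. In ad libitum against control the range was Adcyap1 −0.057 to 0.10, Cckbr −0.14 to 0.27 and Tacr1 −0.052 to 0.030. In pair-fed against control the range was Adcyap1 −0.035 to 0.045, Cck −0.052 to 0.19, Cckbr −0.049 to 0.014 and Tac1 −0.00061 to 0.066. In pair-fed against ad libitum the range was Adcyap1 −0.083 to 0.075, Cckbr −0.29 to 0.12 and Galr1 −0.15 to 0.019. In the mean of both groups against control the range was Adcyap1 −0.019 to 0.060, Cckbr −0.079 to 0.13 and Tac1 −0.041 to 0.025. For Cckbr in comparisons with the ad libitum group, library 1 gave the other sign.

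Over all genes the calls numbered 11 (0 to 110 over the settings) in ad libitum against control, 87 (65 to 250) in pair-fed against control, 71 (31 to 170) between the risperidone groups and 59 (36 to 193) for the mean of both. Same-numbered libraries of different groups deviated together in 2 of 19 pairs at r over 0.1 (−0.158 to 0.304), so the numbers were not taken to pair samples, and with the replicate block Gal had −0.38 (adjusted p = 0.0829, edgeR) and −0.26 (adjusted p = 0.407, edgeR) against control. The block changed no call of the 8 genes. Depth limited Galr1 most, at 72 to 182 counts per library, and risperidone ad libitum library 3 overall.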
